A study of Homo sapiens with 12 samples.

Results

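The 10 genes of the BCL2 family described here were measured in 501Mel, a human melanoma cell line that carries an activating BRAF mutation. They were BCL2, BCL2L1, MCL1, BCL2A1, BAX, BID, BCL2L11, BMF, BBC3 and PMAIP1, taken by symbol as 10 of the 56638 gene symbols in a table of RNA-seq read counts. All 10 passed the filter on low counts, as did 16080 genes of the whole table. The series held 12 libraries in 6 groups of 2, all harvested after 48 h. The vehicle group received DMSO. The Vem group received 1 µM vemurafenib, an inhibitor of mutant BRAF, and the RSV group 5 µM resveratrol, which the study used as an antagonist of the aryl hydrocarbon receptor (AhR). The TCDD group received 10 nM of the dioxin TCDD, a strong AhR agonist. The RSV+Vem group received 5 µM resveratrol with 1 µM vemurafenib. The RSV+TCDD group received 5 µM resveratrol with TCDD, for which the treatment protocol gives 10 nM and the sample label 1 nM, so comparisons of RSV+TCDD with TCDD may also differ in dose. Every group was the same single cell line at 1 time point, and the sources used here do not say whether replicates were separate cultures, so p-values measure the spread between these libraries only.

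BCL2 family proteins set the threshold at which mitochondria release the factors that start apoptosis. The guardians BCL2, BCL-XL (gene BCL2L1), MCL1 and BFL-1 (gene BCL2A1) hold the process in check. BAX is an effector that opens the outer mitochondrial membrane once the guardians no longer restrain it. BID, BIM (gene BCL2L11), BMF, PUMA (gene BBC3) and NOXA (gene PMAIP1) carry only the BH3 domain and either neutralise guardians or activate effectors. In melanoma, BCL2A1 is a known target of the melanocyte factor MITF, BIM and BMF are known to accumulate when the ERK pathway is blocked, and NOXA is known as a binder of MCL1.

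The libraries held 8378655 to 25076925 counts on genes, with the fewest in RSV+Vem replicate 2. Melanocyte lineage markers were high in every library, with the 7 genes MITF, SOX10, MLANA, PMEL, TYR, DCT and TYRP1 adding up to at least 11108 CPM, counts scaled to a common library total. Over all libraries together, the keratinocyte markers KRT5 and KRT14 had 1 and 2 counts, the immune markers CD3E, PTPRC and CD14 had 1, 9 and 18, and the endothelial marker CDH5 had 34. The fibroblast markers COL1A2, DCN and COL1A1 had 32, 46 and 347 counts and LUM had 3048. PECAM1 was listed at 0 and had no entry in the annotation used for positions. Among the treatment checks, the ERK output gene DUSP6 had a mean of 104.6 CPM in vehicle and 1.25 CPM in Vem, and the AhR target CYP1A1 had 23.3 CPM in vehicle and 143.5 CPM in TCDD. CYP1A1 was also higher in RSV alone, at 68.3 CPM (log2 1.55, adjusted p = 4.36e-08), and at 42.0 CPM in RSV+TCDD. Levels below are CPM scaled by the TMM method, so each change is relative to the bulk of genes in the library. Spike-in control transcripts made up 0.03099% to 0.09364% of the gene counts. Scaling by these controls moved the median log2 fold change of all genes to -0.68 for Vem, -0.51 for TCDD and -0.17 for RSV against vehicle, to -0.52 and -1.02 for RSV+Vem and RSV+TCDD against RSV, and to -0.70 for RSV+TCDD against TCDD. Bulk RNA also cannot tell a loss of cells that express a gene from less RNA of that gene in each cell.

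Levels per kb of annotated exon allow a rough comparison of genes. The exons of all annotated transcripts were joined, giving 995 bases for BCL2A1 and 12612 for BCL2, whichever transcripts the cells express. Ranks on this scale therefore depend on the annotation. MCL1 had the highest level of the 10 in vehicle at 32.2 CPM per kb. BCL2A1 followed with 21.3, BAX with 19.0, BCL2L1 with 12.6 and BBC3 with 6.003 CPM per kb. BID at 3.97, PMAIP1 at 3.23, BCL2L11 at 2.68, BMF at 2.21 and BCL2 at 2.18 CPM per kb were the lowest. BCL2A1 ranked first in the Vem and TCDD groups and at place 4 in RSV+Vem, on the same scale.

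The promoter windows of PMAIP1, BMF (1 of its 2) and BCL2A1 are shown because the results below turn on these genes. Each runs from 250 bases before to 50 bases after a RefSeq transcription start, on build GRCh38.p14, 5′ to 3′ on the strand of the gene. Capitals mark the motifs GCGTG, the core of the AhR site, and CATGTG, an E-box bound by MITF and its relatives, searched on both strands together with the E-box CACGTG, the AP-1 motif TGAGTCA and the FOXO motif TGTTTAC.
PMAIP1, chr18:59899746-59900045, plus strand: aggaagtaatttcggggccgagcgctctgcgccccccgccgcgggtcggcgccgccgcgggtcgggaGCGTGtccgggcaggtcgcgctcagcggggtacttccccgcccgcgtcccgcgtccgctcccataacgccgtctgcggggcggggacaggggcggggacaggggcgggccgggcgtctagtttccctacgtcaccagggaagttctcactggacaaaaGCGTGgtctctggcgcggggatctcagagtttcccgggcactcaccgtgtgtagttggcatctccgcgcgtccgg
BMF, chr15:40108830-40109129, minus strand: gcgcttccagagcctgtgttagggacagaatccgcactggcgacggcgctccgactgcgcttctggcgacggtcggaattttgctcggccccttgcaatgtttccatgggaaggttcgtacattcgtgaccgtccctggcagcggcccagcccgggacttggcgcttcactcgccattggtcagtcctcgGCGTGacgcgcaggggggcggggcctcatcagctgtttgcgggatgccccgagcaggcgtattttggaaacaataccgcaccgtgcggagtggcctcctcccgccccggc
BCL2A1, chr15:79971147-79971446, minus strand: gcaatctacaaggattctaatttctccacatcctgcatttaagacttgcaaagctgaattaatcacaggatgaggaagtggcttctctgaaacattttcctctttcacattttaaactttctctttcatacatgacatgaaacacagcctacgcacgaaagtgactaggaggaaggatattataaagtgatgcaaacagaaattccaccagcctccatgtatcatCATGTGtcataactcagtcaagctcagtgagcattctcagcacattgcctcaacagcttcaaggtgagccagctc
GCGTG began 183 and 25 bases before the PMAIP1 start and 60 bases before this BMF start, and CATGTG began 25 bases before the BCL2A1 start. None of the other motifs matched in these windows. The second BMF window, chr15:40106917-40107216, held no match to any of the motifs. Among 35116 RefSeq windows of this length, 36.5% held GCGTG and 11.1% held CATGTG, so a match is a description of the letters and no evidence of binding. Of the other members, BCL2L1, BID and BCL2L11 held GCGTG in at least 1 window, BAX (at 4 places), BID and BBC3 held CACGTG, and BID held CATGTG. BBC3 also held TGAGTCA and BCL2L11 TGTTTAC, which overlapped one of its GCGTG matches. CACGTG was in 7.26%, TGAGTCA in 4.95% and TGTTTAC in 3.42% of windows.

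**Figure D1:**
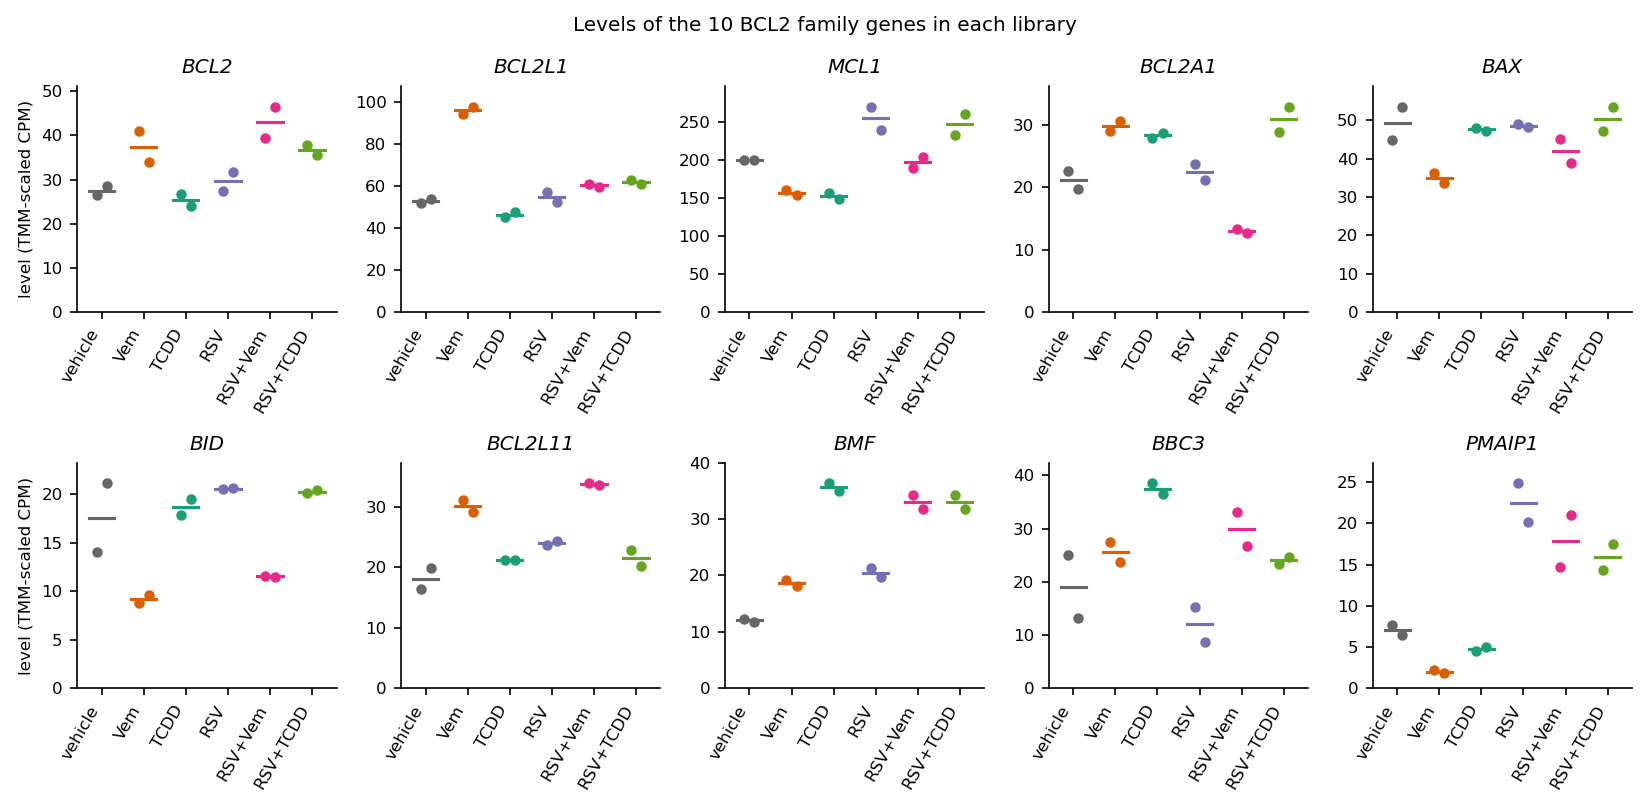
Level of each gene in TMM-scaled CPM (y axis, from 0, scaled separately for each gene) in the 6 groups, with 1 point per library and a bar at the mean of 2. PMAIP1 was lowest in Vem and above vehicle in all groups with RSV, BMF was above vehicle in every treated group, and BCL2A1 was lowest in RSV+Vem.

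With Vem alone, 9 of the 10 genes passed the test, beside 52.4% of all genes tested. BCL2, BCL2L1, BCL2A1, BCL2L11 and BMF rose, and MCL1, BAX, BID and PMAIP1 fell relative to the bulk of genes. Under spike-in scaling none of the 5 that rose was called, and BCL2, BCL2A1 and BMF had the opposite sign. Guardians and BH3-only genes were found on both sides. With TCDD alone, 3 of 10 passed, beside 6.73% of all genes. BMF and BCL2A1 rose and MCL1 fell. Under spike-in scaling none of the 3 was called, and BCL2A1 had the opposite sign. With RSV alone, 4 of 10 passed, beside 40.7% of all genes, and all 4 (MCL1, BCL2L11, BMF and PMAIP1) rose. Under spike-in scaling each kept its sign, but none of the 4 was called.

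On a background of RSV, adding Vem changed 7 of the 10 genes, beside 24.7% of all genes. BCL2, BCL2L11, BMF and BBC3 rose and MCL1, BCL2A1 and BID fell. Under spike-in scaling none of the 7 was called, and BCL2 and BCL2L11 had the opposite sign. On a background of Vem, adding RSV changed 5, beside 37.9% of all genes. PMAIP1, BMF and MCL1 rose and BCL2A1 and BCL2L1 fell. The signs were the same under spike-in scaling, where only PMAIP1 was still called. Adding TCDD on a background of RSV changed 2, beside 6.16% of all genes, with BCL2A1 and BMF higher and both of opposite sign under spike-in scaling. RSV+TCDD exceeded TCDD in 4, beside 37.7% of all genes, namely BCL2, BCL2L1, MCL1 and PMAIP1. Under spike-in scaling none of the 4 was called, and all but PMAIP1 had the opposite sign. These comparisons share libraries, and their counts are not independent of one another.

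**Figure D2:**
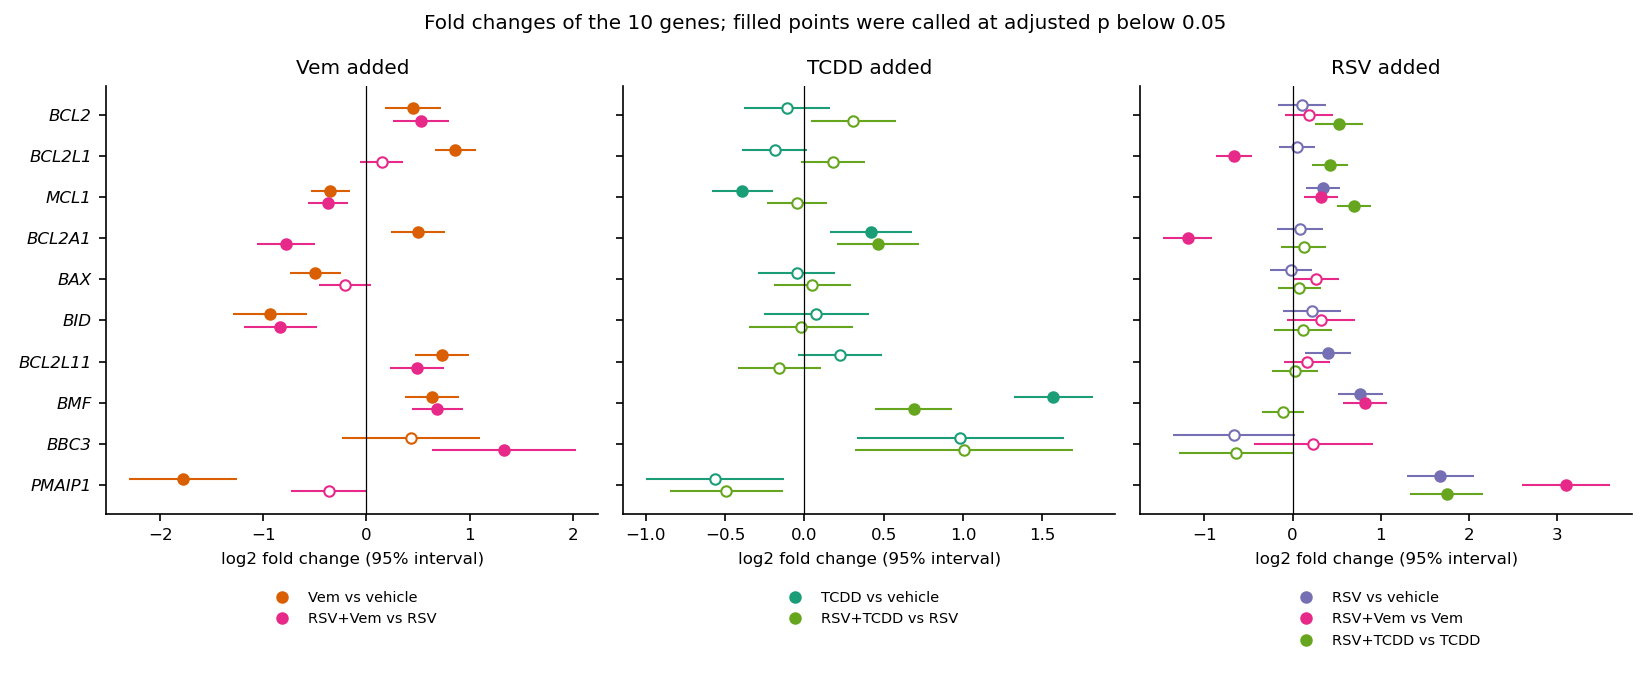
Log2 fold change of each gene (x axis, own range in each panel) with its 95% interval, for Vem, TCDD and RSV added to the groups named in the legends, 2 libraries against 2. Filled points passed the test at adjusted p below 0.05. The signs of several of them flip under spike-in scaling, as named in the text, up to a change of 0.69 for MCL1 in RSV+TCDD against TCDD.

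Among the guardians, BCL2L1 (chromosome 20, 30252255 to 30311792, minus strand, GRCh37) encodes the guardian BCL-XL. Its level was 51.8 and 53.6 CPM in vehicle, 94.1 and 97.8 in Vem, 45.0 and 47.6 in TCDD, 57.1 and 52.2 in RSV, 61.1 and 59.7 in RSV+Vem and 62.7 and 61.1 in RSV+TCDD. Both Vem libraries lay above all others, the libraries of RSV and vehicle overlapped, and TCDD was lowest. Vem raised it 1.82-fold over vehicle (log2 0.86 ± 0.10 SE, adjusted p = 5.98e-07, edgeR). Adding Vem to RSV gave 0.15 ± 0.10 (95% interval -0.06 to 0.35, adjusted p = 0.293). The difference of these Vem effects was itself past the threshold, at -0.72 ± 0.14 (adjusted p = 0.0011). RSV+Vem was below Vem by a log2 of -0.67 ± 0.10 (adjusted p = 3.31e-05). RSV+TCDD was above TCDD by 0.42 ± 0.10 (adjusted p = 0.00243), for which the labels give different TCDD doses.

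BCL2A1 (chromosome 15, 80253234 to 80263538, minus strand, GRCh37) encodes BFL-1, a guardian of the melanocyte lineage. Its level was 22.6 and 19.7 CPM in vehicle, 29.1 and 30.7 in Vem, 27.9 and 28.7 in TCDD, 23.7 and 21.2 in RSV, 13.4 and 12.7 in RSV+Vem and 28.8 and 32.9 in RSV+TCDD. RSV+Vem was lowest without overlap, vehicle and RSV overlapped, and Vem and RSV+TCDD overlapped at the top with TCDD just below. The RSV+Vem libraries also had the lowest RNA integrity numbers, 8.7 and 8.6 against 9.1 to 9.7 in the others, whose part in the values was not tested. Vem without RSV raised it by a log2 of 0.50 ± 0.12 (adjusted p = 0.0025), a sign that spike-in scaling turned. With RSV present, Vem lowered it by -0.78 ± 0.13 (adjusted p = 0.000403). The interaction of RSV with Vem was -1.28 ± 0.18 (adjusted p = 8.51e-05), and under spike-in scaling it was -1.15 and no longer called (adjusted p = 1). RSV+Vem was 2.28-fold below Vem (log2 -1.19 ± 0.13, adjusted p = 1.98e-06). With TCDD the rise was 0.42 ± 0.12 over vehicle (adjusted p = 0.0468) and 0.46 ± 0.12 over RSV (adjusted p = 0.0323). The TCDD call against vehicle was lost in DESeq2 (adjusted p = 0.0575) and without vehicle replicate 2, TCDD replicate 1 or TCDD replicate 2 (adjusted p = 0.24, 0.203 and 0.24). The call against RSV was lost without RSV replicate 2 or RSV+TCDD replicate 2 (adjusted p = 0.204 and 0.227). Melanocyte markers also differed between these groups. Their summed level was 19379 to 20476 CPM in vehicle, 48206 to 51553 in Vem, 11108 to 12304 in RSV and 19659 to 21037 in RSV+Vem. In TCDD it was 26251 to 27188 CPM and in RSV+TCDD 16504 to 17418. The order of the groups was not that of BCL2A1, and the part of these markers in the BCL2A1 values was not tested.

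MCL1 (chromosome 1, 150533371 to 150552214, minus strand, GRCh37) encodes a short-lived guardian. Its level was 200.5 and 200.2 CPM in vehicle, 161 and 154 in Vem, 156 and 149 in TCDD, 271 and 239.9 in RSV, 189.5 and 204 in RSV+Vem and 233 and 261 in RSV+TCDD. Vem and TCDD overlapped at the bottom, RSV+Vem spanned the vehicle values, and both other RSV groups overlapped at the top. The changes were small. They were -0.35 ± 0.09 for Vem (adjusted p = 0.00379) and -0.39 ± 0.09 for TCDD (adjusted p = 0.014), both on the log2 scale against vehicle. RSV raised it by 0.35 ± 0.09 (adjusted p = 0.00529). The TCDD call was lost without TCDD replicate 1 or 2 (adjusted p = 0.0879 and 0.162) and the RSV call without RSV replicate 1 (adjusted p = 0.0764). With RSV present, Vem lowered MCL1 by -0.38 ± 0.09 (adjusted p = 0.00606), and the interaction was -0.03 with a 95% interval of -0.30 to 0.25. That call was lost without RSV replicate 1 or RSV+Vem replicate 1 (adjusted p = 0.0643 and 0.0818). RSV+Vem lay above Vem by 0.32 ± 0.09 (adjusted p = 0.0102), a call lost without Vem replicate 2 or RSV+Vem replicate 2 (adjusted p = 0.0862 and 0.0884). RSV+TCDD was above TCDD by 0.69 ± 0.09 (adjusted p = 1.86e-05), which under spike-in scaling became -0.01.

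BCL2 (chromosome 18, 60790579 to 60987361, minus strand, GRCh37) gave the family its name and is itself a guardian. Its level was 26.5 and 28.4 CPM in vehicle, 41.0 and 34.0 in Vem, 26.8 and 24.0 in TCDD, 27.5 and 31.7 in RSV, 39.5 and 46.6 in RSV+Vem and 37.9 and 35.5 in RSV+TCDD. The libraries of vehicle, TCDD and RSV all lay below those of Vem, RSV+Vem and RSV+TCDD. Vem raised BCL2 by a log2 of 0.45 ± 0.13 over vehicle (adjusted p = 0.00699) and by 0.53 ± 0.13 over RSV (adjusted p = 0.00607). The first call was lost without Vem replicate 1 (0.31, adjusted p = 0.133), and the second without RSV replicate 1 or RSV+Vem replicate 2 (adjusted p = 0.0532 and 0.0676). RSV+TCDD was above TCDD by 0.53 ± 0.13 (adjusted p = 0.00365). RSV+TCDD against RSV gave 0.31 with a 95% interval of 0.04 to 0.58 and an adjusted p of 0.17. Under spike-in scaling every one of the 3 called changes had the opposite sign.

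The effector BAX (chromosome 19, 49458072 to 49465055, plus strand, GRCh37) had the narrowest range of group means as a ratio, from 34.9 to 50.3 CPM. Its level was 44.7 and 53.6 CPM in vehicle, 36.2 and 33.6 in Vem, 48.1 and 47.1 in TCDD, 49.0 and 48.2 in RSV, 45.0 and 38.8 in RSV+Vem and 47.2 and 53.3 in RSV+TCDD. Vem was lowest and the groups without Vem overlapped. Vem lowered it 1.41-fold (log2 -0.49 ± 0.12, adjusted p = 0.00185), and no other comparison passed. With RSV present the Vem effect was -0.21 (95% interval -0.46 to 0.04, adjusted p = 0.218), and the interaction of 0.29 had an adjusted p of 0.233. The other effectors showed a different picture with Vem. BAK1, the partner of BAX, rose by 1.12 ± 0.12 (adjusted p = 2.99e-07) from a mean of 46.0 to 99.8 CPM, and BOK by 1.15 ± 0.21 (adjusted p = 0.000199). RSV added to Vem brought both down, with log2 values of -0.45 and -0.64 and adjusted p of 0.0056 and 0.0253.

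BID (chromosome 22, 18216904 to 18257536, minus strand, GRCh37), which caspase-8 cleaves to link death receptors to mitochondria, was lower in both groups with Vem. Its level was 14.0 and 21.1 CPM in vehicle, 8.83 and 9.61 in Vem, 17.8 and 19.5 in TCDD, 20.5 and 20.6 in RSV, 11.5 and 11.5 in RSV+Vem and 20.1 and 20.4 in RSV+TCDD. The 4 libraries with Vem lay below the other 8, and the vehicle libraries spanned the TCDD, RSV and RSV+TCDD values. Vem lowered it by -0.94 ± 0.17 without RSV (adjusted p = 0.00015) and by -0.84 ± 0.17 with RSV (adjusted p = 0.00145). Without vehicle replicate 2 the first value was -0.59 and still called. The interaction was 0.10 with a 95% interval of -0.40 to 0.61. Without vehicle replicate 2, RSV raised BID by 0.55 (adjusted p = 0.00953), against 0.22 and an adjusted p of 0.274 with both libraries.

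BCL2L11 (chromosome 2, 111876955 to 111926021, plus strand, GRCh37) encodes BIM, which the ERK pathway is known to mark for degradation. Its level was 16.3 and 19.8 CPM in vehicle, 31.1 and 29.1 in Vem, 21.1 and 21.2 in TCDD, 23.6 and 24.3 in RSV, 33.9 and 33.5 in RSV+Vem and 22.8 and 20.2 in RSV+TCDD. The 4 libraries with Vem were the highest, with RSV+Vem above Vem, and the vehicle libraries were the lowest. Vem raised it 1.66-fold over vehicle (log2 0.73 ± 0.13, adjusted p = 8.2e-05) and by 0.49 ± 0.12 over RSV (adjusted p = 0.00752). The latter call was lost without RSV+Vem replicate 1 (adjusted p = 0.0595), and its sign turned under spike-in scaling, to -0.03. RSV raised it by 0.40 ± 0.12 (adjusted p = 0.0152), a call lost without vehicle replicate 1 or RSV replicate 2 (adjusted p = 0.152 and 0.061) and when only these 4 libraries were fitted (adjusted p = 0.0536). RSV+Vem against Vem gave 0.16 (95% interval -0.10 to 0.42, adjusted p = 0.323).

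BMF (chromosome 15, 40380091 to 40401093, minus strand, GRCh37), whose promoter is printed above, encodes a BH3-only protein released from the cytoskeleton under stress. Its level was 12.2 and 11.8 CPM in vehicle, 19.3 and 18.1 in Vem, 36.4 and 34.9 in TCDD, 21.3 and 19.8 in RSV, 34.2 and 31.7 in RSV+Vem and 34.3 and 31.8 in RSV+TCDD. Vehicle was lowest without overlap, Vem and RSV lay next to each other, and the libraries of RSV+Vem and RSV+TCDD overlapped below those of TCDD. TCDD raised it 2.97-fold (log2 1.57 ± 0.12, 95% interval 1.32 to 1.82, adjusted p = 5.02e-07). Under spike-in scaling the rise was 1.06 and no longer called (adjusted p = 0.518). RSV raised it by 0.77 ± 0.12 (adjusted p = 7.98e-05) and Vem by 0.63 ± 0.12 (adjusted p = 0.000298). Vem added to RSV gave 0.69 ± 0.12 (adjusted p = 0.000355), and the interaction of RSV with Vem was 0.05 with a 95% interval of -0.30 to 0.41. TCDD added to RSV gave 0.69 ± 0.11 (adjusted p = 0.00191), and RSV+TCDD against TCDD -0.11 (95% interval -0.34 to 0.12). The interaction of RSV with TCDD was -0.88 ± 0.16 (adjusted p = 0.0401), which made BMF 1 of the 24 genes called for that interaction, 0.149% of those tested, and the only 1 of the 10. That call was lost in 6 of the 8 fits that left out a library, all but those without vehicle replicate 2 or RSV replicate 2, with the log2 value staying between -0.93 and -0.82. The fibroblast marker LUM also stood out in TCDD, at a mean of 34.5 CPM against 12.5 in vehicle. The 4 fibroblast markers together gave 31.6 to 39.3 CPM in TCDD and 12.9 to 16.3 in vehicle, a difference carried by LUM. The other means were no higher in TCDD than in vehicle, at 0.75 against 1.49 CPM for COL1A1, 0.05 against 0.40 for COL1A2 and 0.16 against 0.17 for DCN. The defining fibroblast genes COL1A2 and DCN had 32 and 46 counts in all libraries together, and the part of LUM in the BMF value was not tested.

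BBC3 (chromosome 19, 47724079 to 47736023, minus strand, GRCh37) encodes PUMA, a BH3-only protein that binds all guardians. Its fold changes had the largest standard errors of the 10. The level was 25.1 and 13.2 CPM in vehicle, 27.4 and 23.7 in Vem, 38.5 and 36.4 in TCDD, 15.3 and 8.77 in RSV, 33.0 and 26.7 in RSV+Vem and 23.4 and 24.6 in RSV+TCDD. TCDD was highest without overlap, and vehicle and RSV overlapped at the bottom. Only Vem added to RSV passed the test, at a log2 of 1.33 ± 0.31 (adjusted p = 0.0124), and that call was lost without RSV replicate 2 or RSV+Vem replicate 1 (adjusted p = 0.0718 and 0.113). TCDD against vehicle gave 0.98 ± 0.29 (95% interval 0.33 to 1.63, adjusted p = 0.0797) and reached 1.51 (adjusted p = 0.00197) without vehicle replicate 1. Vem against vehicle gave 0.43 ± 0.30 (adjusted p = 0.258) and reached 0.95 (adjusted p = 0.00428) without the same library. RSV against vehicle gave -0.67 ± 0.31 (adjusted p = 0.116), and -1.07 or -1.12 (adjusted p = 0.00244 and 0.036) without vehicle replicate 2 or RSV replicate 1. Without vehicle replicate 2, the Vem and TCDD values were 0.047 and 0.58, and without vehicle replicate 1 the RSV value was -0.15. With all libraries kept, TCDD and RSV against vehicle passed without a filter (adjusted p = 0.00036 and 0.00815) and with the replicate number as a block (adjusted p = 0.00739 and 0.023). RSV+TCDD against RSV and against TCDD passed without a filter (adjusted p = 0.000426 and 0.00955) and with only the libraries compared (adjusted p = 0.0292 and 0.000267). Without a filter the interaction of RSV with Vem passed as well (adjusted p = 0.0161). The block also brought past the threshold RSV+TCDD against RSV and against TCDD (adjusted p = 0.0101 and 0.021) and the interaction of RSV with Vem (adjusted p = 0.045), although the numbers were not found to pair the libraries. BBC3 was higher in replicate 1 than in replicate 2 in 5 of the 6 groups. Its calls thus depended on single libraries, the filter and the model.

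PMAIP1 (chromosome 18, 57567228 to 57571537, plus strand, GRCh37) encodes NOXA and spanned the widest range of the 10 as a fold, from a mean of 2.03 CPM in Vem to 22.5 CPM in RSV. The study uses it in a signature of AhR targets. Its level was 7.69 and 6.43 CPM in vehicle, 2.23 and 1.84 in Vem, 4.56 and 5.00 in TCDD, 24.9 and 20.1 in RSV, 14.7 and 21.0 in RSV+Vem and 14.4 and 17.5 in RSV+TCDD. All 6 libraries with RSV lay above all 6 without, and Vem was lowest, with 32 and 24 counts. RSV raised it 3.19-fold over vehicle (log2 1.67 ± 0.18, adjusted p = 1.87e-06). Vem lowered it 3.44-fold (log2 -1.78 ± 0.25, adjusted p = 9.02e-06). With RSV present, Vem gave -0.36 ± 0.18 (95% interval -0.73 to 0.01, adjusted p = 0.144), or -0.61 (adjusted p = 0.038) without RSV+Vem replicate 2. The interaction of RSV with Vem was 1.42 ± 0.31 (adjusted p = 0.003). RSV+Vem was 8.54-fold above Vem (log2 3.10 ± 0.24, 95% interval 2.60 to 3.59, adjusted p = 3.14e-08). RSV+TCDD was 3.36-fold above TCDD (log2 1.75 ± 0.20, adjusted p = 3.11e-06), while TCDD against vehicle gave -0.57 with an adjusted p of 0.113.

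The effect of Vem differed with and without RSV for 3 of the 10 genes (BCL2L1, BCL2A1 and PMAIP1), beside 22.7% of all genes tested for this interaction. Under spike-in scaling none of the 3 was called (adjusted p = 1, 1 and 0.944), with each sign as before. The ERK output genes moved with these groups too. DUSP6 was at 1.25 CPM in Vem and 13.2 CPM in RSV+Vem, and SPRY4, a feedback inhibitor of the same pathway, at 1.14 and 13.8 CPM, against 104.6 and 59.2 CPM in vehicle. Whether the ERK output, which was higher in RSV+Vem than in Vem, had a part in the 3 interactions was not tested.

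**Figure D3:**
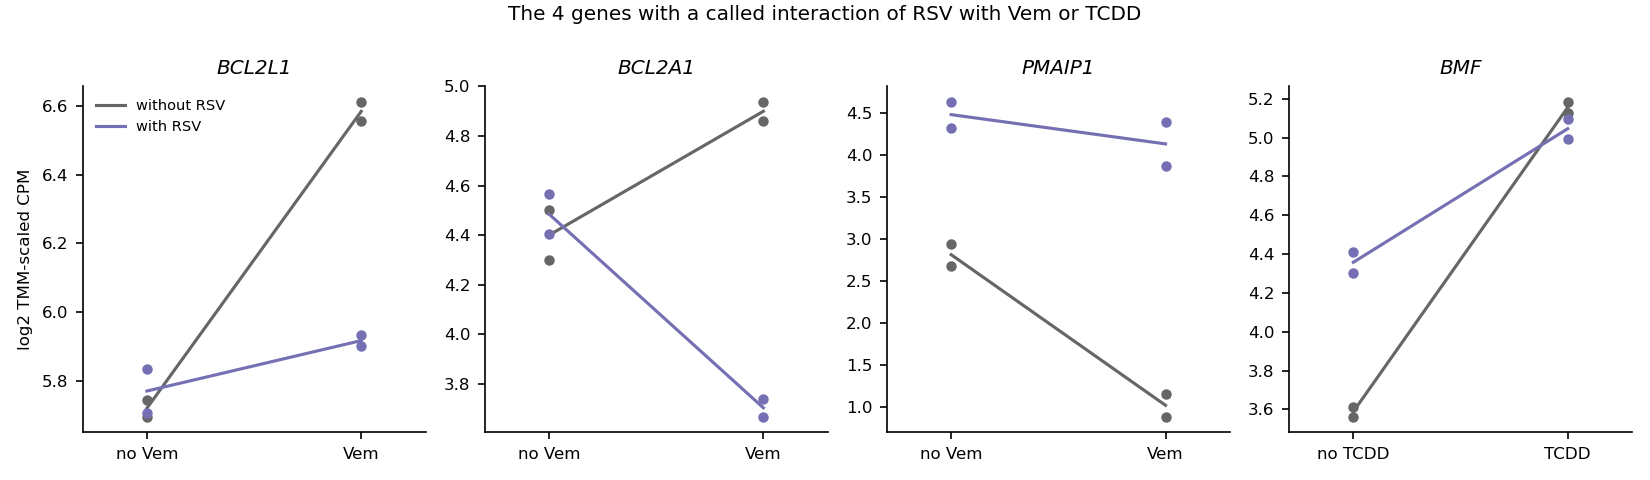
Level (y axis, log2 TMM-scaled CPM, own range in each panel) of BCL2L1, BCL2A1 and PMAIP1 without and with Vem and of BMF without and with TCDD, in cells without RSV (grey) and with RSV (violet), with 1 point per library and lines between group means. Parallel lines would mean equal effects. The lines for BCL2A1 ran in opposite directions, with a rise of 0.50 without RSV and a fall of -0.78 with it.

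Summed per kb of exon, the 4 guardians gave 69.4 and 67.0 CPM per kb in vehicle and 80.8 and 81.5 in Vem, while in RSV+Vem they gave 61.6 and 63.5. The 5 BH3-only genes gave 19.2 and 17.0 CPM per kb in vehicle, 19.8 and 18.1 in Vem and 31.0 and 31.4 in RSV+Vem. Their sum thus corresponded to 27.7% and 25.3% of the guardian sum in vehicle and to 24.5% and 22.2% in Vem. The percentage was 42.5% and 41.9% in TCDD, 34.0% and 31.9% in RSV, 50.4% and 49.4% in RSV+Vem and 33.4% and 31.6% in RSV+TCDD. Vem was lowest and RSV+Vem highest, TCDD stood between RSV+Vem and the RSV groups, and RSV and RSV+TCDD overlapped. RSV+Vem, the highest, was also the group with the lowest RNA integrity numbers, whose part was not tested. MCL1 supplied 30.3% to 32.0% of the guardian sum in Vem and 51.6% to 52.3% in RSV, and PMAIP1 4.67% to 5.15% of the BH3-only sum in Vem and 38.6% to 40.3% in RSV. These sums of RNA are descriptions, with no test, and take no account of protein. They leave out other expressed family genes, such as the guardian BCL2L2 and the BH3-only genes BAD, HRK and BIK. BAD had means of 21.3 CPM in vehicle and 35.2 in Vem over 1708 exonic bases, and BCL2L2 49.4 and 45.6 over 4840. The order of the groups therefore holds for the listed genes only. BAD itself rose with Vem by a log2 of 0.72 ± 0.15 (adjusted p = 0.000412, edgeR). The place of Vem below vehicle may thus not hold once BAD is added, and the order was not computed with the other genes.

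**Figure D4:**
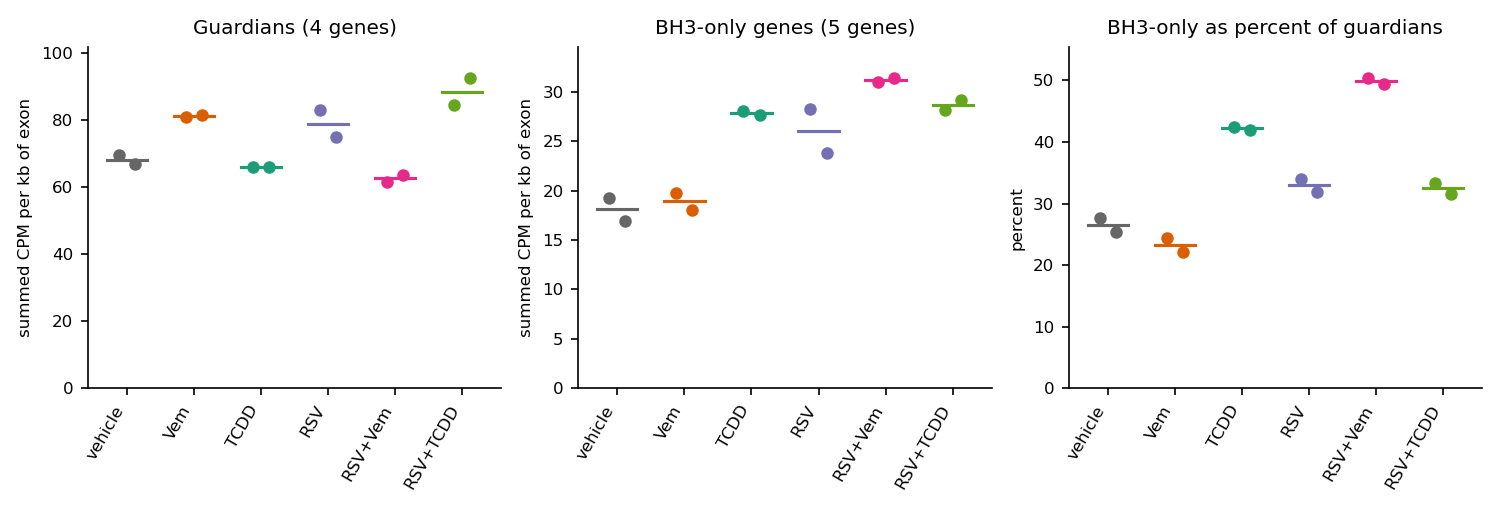
Summed level of the 4 guardians (left) and the 5 BH3-only genes (middle) in CPM per kb of exon, and the BH3-only sum as a percent of the guardian sum (right), all from 0, with 1 point per library and a bar at the mean of 2. The percentage was 50.4% and 49.4% in RSV+Vem and 24.5% and 22.2% in Vem. Other expressed family genes, such as BAD and BCL2L2, are left out, and the order of the groups may differ with them.

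Beyond the 10 genes, 52 further genes of the pathway were listed, of which 47 were tested. Against vehicle, 16 rose and 14 fell with Vem, 3 rose and none fell with TCDD, and 18 rose and 9 fell with RSV. Of all genes tested, 52.4%, 6.73% and 40.7% were called in these comparisons, so the share of the list with TCDD was near that of all genes. RSV+Vem against Vem had 18 higher and 10 lower, RSV+Vem against RSV 6 higher and 6 lower, and RSV+TCDD against TCDD 18 higher and 6 lower, beside 37.9%, 24.7% and 37.7% of all genes. RSV+TCDD against RSV had BAD alone, which was higher by 0.51 (adjusted p = 0.0436) and at -0.55 under spike-in scaling. Among the other BH3 genes, HRK, a BH3-only gene known from neurons, rose by 1.17 ± 0.16 with Vem, 0.77 ± 0.16 with TCDD and 1.00 ± 0.16 with RSV (adjusted p = 7.13e-06, 0.00642 and 9.09e-05). BIK rose in the same 3 comparisons from a mean of only 0.65 CPM in vehicle, to 1.32, 1.60 and 1.97 CPM. BNIP3L fell by -1.22 ± 0.37 with Vem and -1.48 ± 0.37 with RSV (adjusted p = 0.0278 and 0.0177), from 249 and 116 CPM in vehicle. Of the 7 genes of this list tested, 4 rose and 2 fell with Vem, beside 25.5% and 26.9% of all genes. With TCDD 2 rose and none fell, beside 4.72% and 2.01%. With RSV 3 rose and 1 fell, beside 20.5% and 20.2%.

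Of the 5 inhibitors of apoptosis tested, which bind caspases or guard dividing cells, 4 fell and none rose with Vem, beside 26.9% of all genes that fell and 25.5% that rose. The list as a whole was not tested. BIRC5 fell from 134.6 to 45.5 CPM (log2 -1.57 ± 0.11, adjusted p = 1.37e-09), BIRC7, a target of MITF in melanocytes, by -1.47 ± 0.25 (adjusted p = 0.000747) and XIAP by -0.64 ± 0.16 (adjusted p = 0.00211). BIRC5 is also a gene of dividing cells. Of 13 caspases and mitochondrial factors, 4 rose and 4 fell with Vem, beside the same shares of all genes, with APAF1, the scaffold of the apoptosome, lower by -1.11 ± 0.13 (adjusted p = 1.8e-06) and ENDOG, a mitochondrial nuclease, higher by 1.38 ± 0.21 (adjusted p = 3.55e-05). With RSV, 6 rose and 3 fell, beside 20.5% and 20.2% of all genes, CASP8 among the former at 0.83 ± 0.13 (adjusted p = 5.32e-05). In the death receptor arm, CFLAR, which blocks caspase-8, rose by 0.87 ± 0.13 with Vem and 0.73 ± 0.13 with RSV (adjusted p = 2.67e-05 and 0.000319), and FADD rose by 0.65 with Vem and fell by 0.54 with RSV (adjusted p = 0.000152 and 0.00177), the rise becoming -0.0018 under spike-in scaling.

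Of the 10 transcription factors known to act on these genes, 5 rose and 1 fell with RSV, beside 20.5% and 20.2% of all genes. DDIT3, a factor of the stress response, rose from 23.7 to 74.0 CPM (log2 1.65 ± 0.32, adjusted p = 0.00477), while MITF fell by -0.97 ± 0.15 (adjusted p = 0.000355). None of the 10 factors passed with TCDD, beside 6.73% of all genes, a share at which few of 10 would be called.

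**Figure D5:**
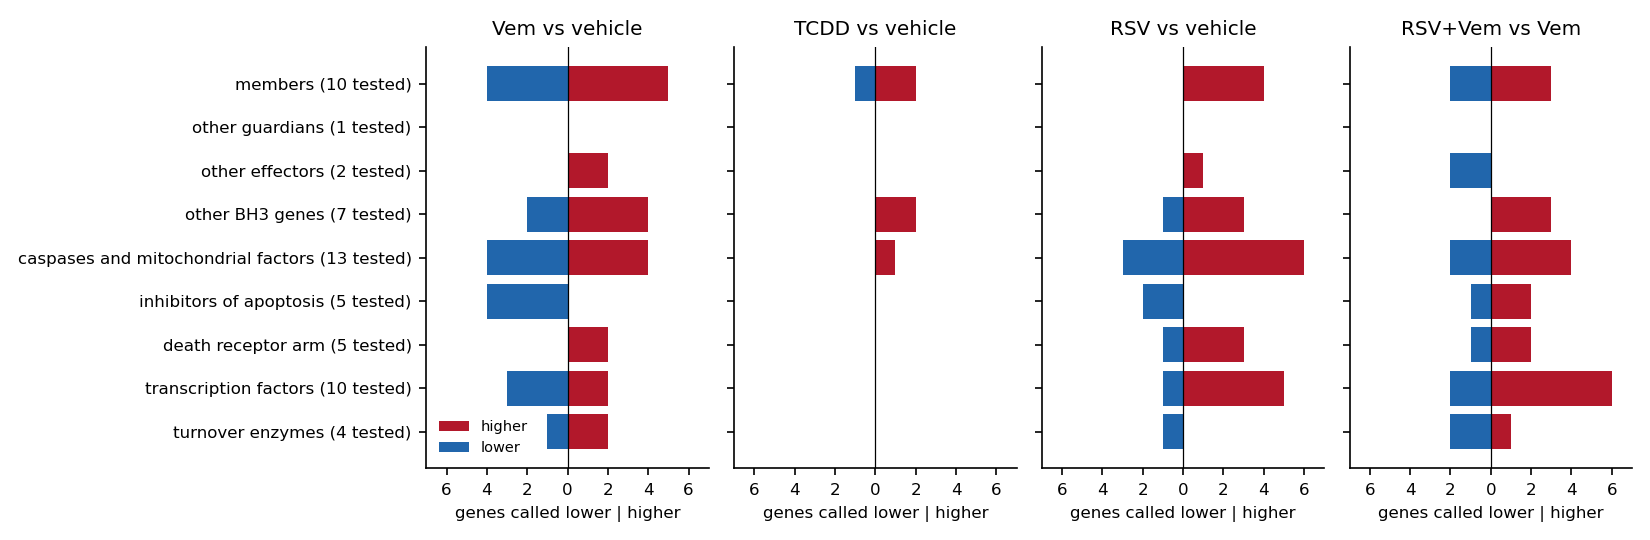
Number of genes called higher (red, right) and lower (blue, left) at adjusted p below 0.05 in each list of pathway genes, for 4 comparisons, relative to the bulk of genes. With Vem the inhibitors of apoptosis had 4 lower and none higher, beside 26.9% and 25.5% of all genes. With TCDD 3 of the 47 tested genes outside the 10 were called, beside 6.73% of all genes.

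Across the 12 libraries, genes whose log2 CPM was most like that of a member were sought among 11955 genes with a mean of at least 50 counts. The highest Pearson r were with KITLG (0.989) and EFNB2 (0.988) for PMAIP1, with HTRA2 (0.957) and FXYD6 (0.956) for BMF, and with RGL2 (0.933) and PSMB4 (0.919) for BCL2A1. For BCL2L1 they were VPS11 (0.967) and CDIP1 (0.967), for BCL2L11 DYNLL2 (0.971), for BID STK10 (0.975), for MCL1 RNF144A-AS1 (0.963), for BCL2 SNRK (0.962), for BAX CPSF4 (0.963) and for BBC3 DBP (0.92). Within the family, BAX and BID had an r of 0.909 and MCL1 and PMAIP1 of 0.854, while BCL2L1 and BAX had -0.769. The 12 points come from 6 treatments in pairs, so these r describe shared treatment patterns and carry no test.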

How the data were processed

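The authors prepared stranded mRNA libraries, aligned paired reads to hg19 with STAR 2.4.0a and deposited raw read counts per gene symbol from featureCounts (Subread 1.5.0-p3); the annotation release is not given in the sources used here. The methods name a forward strand option for a kit that reads the reverse strand, and the counts were therefore checked: among 40 pairs of a coding gene and a lncRNA on the opposite strand, the coding gene was higher in 37. The table holds 12 columns, all used, and 96 control rows, 92 of them ERCC transcripts, which were kept out of library sizes. edgeR 4.0.16 (R 4.3.3) was run on all 12 libraries with TMM factors, filterByExpr by group and 1 term per group. Quasi-likelihood F tests, two-sided, were adjusted by Benjamini-Hochberg over 16080 genes and called at adjusted p below 0.05. The common biological coefficient of variation was 0.0915. An SE is the log2 fold change divided by the square root of F, and intervals are 95%. An interaction is the effect with RSV minus that without. No exact permutation of 2 libraries against 2 can pass 0.05. The fit was tested on simulated counts.

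Gene positions and exon lengths are from GENCODE v44 lifted to GRCh37, and promoters from RefSeq on GRCh38.p14; MCL1 had no window in the table used. ABALON, MIR4435-2HG, BMF-AS1 and ADAMTSL4 overlap exons of BCL2L1, BCL2L11, BMF and MCL1 on the opposite strand, and ADAMTSL4-AS1 shares 328 exonic bases with MCL1 on its own strand, with 3 counts in all. The members and lists were chosen with earlier results of these data known. All 10 members were named. Of the other lists, at most the 3 called genes with the largest change per comparison were named. BAD and BCL2L2 were also named, as expressed family genes outside the sums per kb. Per member, the genes most correlated in log2 CPM were named. Alternatives were DESeq2 1.42.0 (the authors' tool), DESeq2's size factors in edgeR (RLE), spike-in scaling, no filter, at least 10 counts in every library, the replicate number as a block, only the libraries compared, and each library left out. The values of 1 listed transcription factor are not reported here.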

Additional observations from a re-analysis of the deposited data

Results flagged for a closer look

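Effects that differed between cells with and without RSV, by the interaction term of the edgeR fit, were found for 4 of the 10 genes. They were 3 for Vem, beside 22.7% of all genes, and 1 for TCDD, beside 0.149%. None of the 4 was called under spike-in scaling, and the BMF call also depended on single libraries, as given above. The effect of Vem changed by -0.72 for BCL2L1, by -1.28 for BCL2A1 and by 1.42 for PMAIP1 on the log2 scale when RSV was present. The effect of TCDD changed by -0.88 for BMF, where the label of the RSV+TCDD group names a lower TCDD dose than that of the TCDD group, so the dose and the presence of RSV cannot be told apart. For BCL2A1, the libraries with Vem were above vehicle when RSV was absent and below RSV when it was present, without overlap. The causes were not tested.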

How the results depend on the processing

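The 10 genes gave 90 log2 values over 9 comparisons. A value counted as kept if its direction and side of the threshold held, or if it was called in neither fit, whatever its sign. That was so for 89 in DESeq2 (all but BCL2A1 with TCDD). It was so for 90 with RLE factors and for 90 with at least 10 counts in every library. Without a filter 82 were kept, and fitting only the libraries compared kept 84. Leaving out 1 library kept 406 of 440 values, with 26 calls lost, 8 gained and no sign turned among called values. In the numbers of members called, leaving out 1 library gave 8 to 10 for Vem, 1 to 4 for TCDD and 3 to 6 for RSV against vehicle, 4 to 7 for RSV+Vem against RSV, 4 to 5 for RSV+Vem against Vem, 1 to 3 for RSV+TCDD against RSV, 4 for RSV+TCDD against TCDD, 3 to 4 for the interaction of RSV with Vem and 0 to 1 for that with TCDD. Without a filter, 4 were called for RSV+TCDD against RSV, and fitting only the libraries compared left 0 for the interaction of RSV with TCDD (BMF, adjusted p = 0.134).

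Same-numbered libraries deviated together in some pairs of groups and in opposite directions in others (15 pairs, correlations of -0.37 to 0.43, 6 above 0.1 and 4 below -0.1). The numbers thus did not pair all libraries in the same way, and whether some libraries were prepared together was not tested. A replicate block changed only calls of BBC3, which passed for TCDD (1.01, adjusted p = 0.00739) and RSV (-0.66, adjusted p = 0.023) against vehicle, RSV+TCDD against RSV (1.04, adjusted p = 0.0101) and TCDD (-0.63, adjusted p = 0.021), and the interaction of RSV with Vem (0.88, adjusted p = 0.045). With the block, 9, 4, 5, 7, 5, 3, 5, 4 and 1 members were called, in the order of comparisons above.

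Spike-in scaling kept 52 values by this rule, lost 23 calls, gained 4 and turned 11 signs of called values. Some values called in neither fit also changed sign, such as BCL2L1 for RSV+TCDD against RSV, from 0.18 to -0.84. Members called were 3 for Vem (all lower, against 5 higher and 4 lower), 0 for TCDD, 0 for RSV and 0 for RSV+Vem against RSV. They were 1 for RSV+Vem against Vem (PMAIP1), 3 for RSV+TCDD against RSV (all lower) and 0 for each interaction. For RSV+TCDD against TCDD the 1 called was BBC3, lower at -1.34 (adjusted p = 0.0367) and not called with TMM factors. Among members called with TMM factors, the values of opposite sign were BCL2 -0.20, BCL2A1 -0.15 and BMF -0.018 for Vem and BCL2A1 -0.089 for TCDD. For RSV+Vem against RSV they were BCL2 -0.021 and BCL2L11 -0.026, and for RSV+TCDD against RSV BCL2A1 -0.59 and BMF -0.33. For RSV+TCDD against TCDD they were BCL2 -0.15, BCL2L1 -0.26 and MCL1 -0.0079. Relative to the median of all genes under this scaling, all called members kept their direction. That was nearly fixed in advance, since the scaling moves all genes of a library by a common factor, and it is no further support. The control share differed between replicates (RSV+Vem 0.0389% and 0.0903%), which widens these errors by construction. Depth limits PMAIP1 in Vem most, at 24 and 32 counts.

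Counts of all genes called moved by over 1.5 times in these cases. Spike-in scaling gave 3815 (of 8422) for Vem, 10 (of 1082) for TCDD, 369 (of 6538) for RSV, 481 (of 3972) and 389 (of 6088) for RSV+Vem against RSV and Vem, 6927 (against 991) and 1912 (against 6057) for RSV+TCDD against RSV and TCDD, and 8 (of 3656) for the interaction with Vem. For TCDD, 293 and 343 were left without TCDD replicate 1 and 2. RSV+Vem against RSV had 2031 without RSV+Vem replicate 1, RSV+TCDD against TCDD 3526 without TCDD replicate 1, and RSV+TCDD against RSV 330 to 439 without RSV replicate 2 or either RSV+TCDD library and 586 with only the libraries compared. The interaction of RSV with TCDD had 24, against 72 in DESeq2, 170 without a filter, 15 with at least 10 counts, 7 with only the libraries compared, 1 by spike-ins and 4 to 179 with 1 library left out.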
